A study of Mus musculus with 12 samples.

Results

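The comparison set colonocytes of mice that lack the C15ORF48/miR-147 locus (KO) against wild-type (WT) colonocytes, both taken after dextran sodium sulfate (DSS), a polymer given in drinking water that injures the colon lining. Members are the 10990 genes, of 23790 listed, that had 1 or more RPKM (read counts corrected for the length of the gene and the depth of the library) in at least 3 of the 6 libraries. KO DSS is colonocytes of C15ORF48/miR-147 KO mice given 3% DSS for 3 days (3 libraries, KO DSS 1 to 3), and WT DSS is colonocytes of WT mice given the same DSS (3 libraries, WT DSS 1 to 3). The series also holds 3 KO untreated and 3 WT untreated libraries in a table that was normalised on its own, and they serve here for side-by-side values and for a test of how far that difference depends on DSS. The labels do not describe the KO allele, the strain or age of the mice, or how many mice stand behind a library. P-values therefore measure the spread between these libraries, which may be technical. The protocol text gives DSS to all 12, which the treatment labels and titles of the 6 untreated libraries contradict, and those labels were taken as right.

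C15ORF48, in mouse AA467197, encodes a small mitochondrial protein related to NDUFA4, a subunit of cytochrome c oxidase, and its messenger RNA carries miR-147, a microRNA known to act on Ndufa4 messenger RNA. The locus is switched on in immune cells and epithelia during inflammation. DSS damages the mucus barrier and the surface epithelium, and dividing crypt cells then replace the lost absorptive and secretory cells. Colonocytes absorb water, salts and bile acids, metabolise drugs and dietary compounds, and make glycans, hormones and antimicrobial proteins.

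The epithelial label held. The summed level of 14 epithelial identity genes, among them Epcam and the keratins, was 11030 to 11370 RPKM in KO DSS and 8261 to 11180 RPKM in WT DSS. The 17 pan-leukocyte genes together had 48.0 to 76.9 RPKM in KO DSS and 40.9 to 48.5 RPKM in WT DSS. The 10 B and plasma cell genes in the table summed to 0.279 to 0.792 RPKM in KO DSS and 0.484 to 0.646 RPKM in WT DSS. The 4 haemoglobin genes listed were at 0 in all 6. How reads that fit several genes were counted is not given in the sources used here, so these zeros do not show that blood was absent. The libraries held 12622416, 16708102 and 15364147 reads in KO DSS and 15429370, 16372726 and 16217250 reads in WT DSS, as recovered from the deposited RPKM. Pearson's r across genes on the log2 scale was 0.969 to 0.989 within KO DSS, 0.982 to 0.991 within WT DSS and 0.954 to 0.983 between the groups.

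The gene of the locus was low in every KO library. AA467197 (chromosome 2, 122636986 to 122641191, plus strand, GRCm38) had 6.54, 7.33 and 9.19 RPKM in KO DSS and 403, 370.3 and 515 RPKM in WT DSS, which is −5.63 on the log2 scale (SE 0.17, adjusted p = 7.89e-07 in limma). These values come from 53, 75 and 90 reads in KO DSS and 4078, 4013 and 5304 reads in WT DSS. AA467197 averaged 429.5 ± 76.0 RPKM in WT DSS and 434.2 ± 7.11 RPKM in WT untreated (SD, n = 3 each), so no rise with DSS was seen. These 2 means are from separately normalised tables and carry no test. No KO value came near a WT value, and AA467197 was the gene of the 84 called that kept its call without each of the 6 libraries in turn. The mature microRNAs of the locus, mmu-miR-147-3p and mmu-miR-147-5p, were not analysed here. Which of them acts on Ndufa4 messenger RNA was not examined, and the 5p seed is not offered as the site of that action. The 5p sequence is shown as a product of the locus that the KO targets, with the seed (bases 2 to 8) in capitals, from RefSeq on GRCm38.p6 at chr2:122640814-122640837, plus strand.
mmu-miR-147-5p: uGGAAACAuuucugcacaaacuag

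Ndufa4 rose in KO DSS. It had 1357, 760.1 and 888 RPKM in KO DSS and 301, 244 and 364 RPKM in WT DSS, which is 3.304-fold by the means (1002 ± 315 and 303 ± 60.2 RPKM, SD, n = 3 each) and 1.70 on the log2 scale (SE 0.25, limma adjusted p = 0.034). The lowest KO DSS library had more than the highest WT DSS library. In untreated mice Ndufa4 was 693 ± 68.4 RPKM in KO and 251 ± 28.1 RPKM in WT, and the test of the difference between the 2 KO against WT contrasts gave 0.23 (limma adjusted p = 0.688). Ndufa4 was not called without KO DSS 3, WT DSS 1 or WT DSS 2, where its adjusted p was at most 0.189.

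Beyond the locus and Ndufa4, KO DSS differed from WT DSS in a set of genes that was small beside the number tested. Of the 10990 genes, 84 (0.764%) passed limma at an adjusted p under 0.05, 49 higher (0.446%) and 35 lower (0.318%) in KO DSS. Before adjustment 2053 genes had a p under 0.05, 1083 higher and 970 lower. In 1223 genes (11.1%) every KO DSS library lay above every WT DSS library, and in 1304 (11.9%) every KO DSS library lay below. Called genes were chosen for a gap between the groups, so groups that do not overlap in a called gene add no further support. The median log2 fold change over all genes was −0.01, with 49.2% of genes above 0. The count rested on single libraries: it was 364 without KO DSS 1, 47 without KO DSS 2, 5 without KO DSS 3, 2 without WT DSS 1, 1 without WT DSS 2 and 37 without WT DSS 3. No called gene changed sign in any of these 6 fits, and 22 of the 84 stayed called in 3 or more of them. Of 29 genes with large changes, 14 rises and 15 falls, 28 were not called without WT DSS 2, 27 without WT DSS 1, 24 without KO DSS 3, 14 without KO DSS 2, 13 without WT DSS 3 and 2 without KO DSS 1. These include genes that no longer passed the filter, 2 when a single KO library was left out (St3gal5 and C1qa) and 3 when a single WT library was left out (Defb45, Lrrk2 and Npy1r). Each of those 5 genes had 1 or more RPKM in all 3 libraries of its higher group and less in all 3 of the other, so that it was tested because of the group where it was high. Among all tested genes 21 passed the filter through KO DSS alone, 3 of them called, and 33 through WT DSS alone, 4 of them called. Among the 84, 4 are gene models with no descriptive name, 2 higher and 2 lower. At the edge of the filter, Rttn had 0.696, 1.16 and 0.818 RPKM in KO DSS and 1.001, 1.04 and 0.838 RPKM in WT DSS and was kept, and Rasl11b had 1.03, 1.24 and 0.998 RPKM in KO DSS and 0.823, 0.434 and 0.738 RPKM in WT DSS and was left out.

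**Figure D1:**
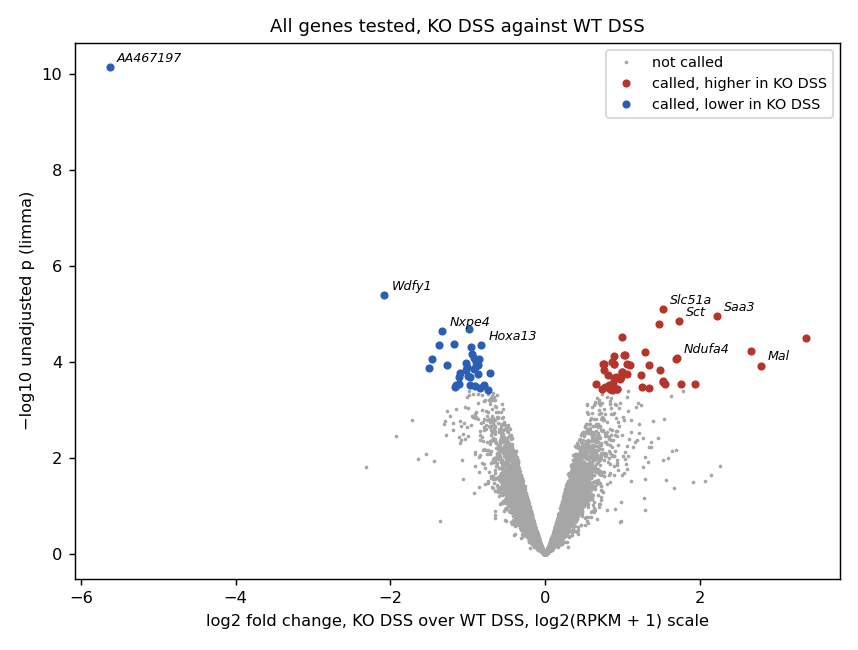
Each point is a gene: the horizontal axis is the log2 fold change of KO DSS over WT DSS on the log2(RPKM + 1) scale and the vertical axis is −log10 of the unadjusted limma p. The 49 called rises (red) and 35 called falls (blue) sit above the grey mass of genes that were not called, with AA467197 at −5.63 far to the left.

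Bile acid transporters were higher in KO DSS than in WT DSS. In what follows, a rise or fall of a gene compares KO DSS with WT DSS and not with untreated mice. Slc10a2, the apical transporter that takes up bile acids, had 62.0, 41.4 and 50 RPKM in KO DSS and 20.5, 23.3 and 27.9 RPKM in WT DSS (log2 fold change 1.06, SE 0.17, adjusted p = 0.037). Slc51a, the alpha subunit of the basolateral exporter, had 88.4, 78.5 and 98.9 RPKM in KO DSS and 26.2, 26.7 and 38.4 RPKM in WT DSS (1.53, SE 0.17, adjusted p = 0.0287). Both genes were higher in each KO library than in each WT library. Of the 26 tested genes of the retinoid, bile acid and nuclear receptor list these were the 2 called, beside 0.764% of all genes. In 6 all KO libraries lay above all WT libraries, beside 11.1% of all genes, and in 1 (Adh1) all lay below, beside 11.9%. Among the 6 were Slc51b, the partner of Slc51a, and Nr1h4, the bile acid receptor FXR. The list's median log2 fold change was 0.08, beside −0.01 for all genes. Slc51a was not called without WT DSS 1, WT DSS 2 or KO DSS 3, and its adjusted p reached 0.166.

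Other genes of the mature absorptive cell stood higher as well. Tmigd1, an adhesion protein of the brush border cell, had 231, 161 and 254 RPKM in KO DSS and 67.6, 50.8 and 108 RPKM in WT DSS (1.55, adjusted p = 0.0463). Slc51a and Tmigd1 were the 2 called of 28 absorptive colonocyte markers (beside 0.764% of all genes), whose median was 0.41 with 23 above 0. All KO libraries exceeded all WT libraries in 10, with Car1, Fabp2 and Guca2a among them, beside 11.1% of all genes. The reverse held for Car2, beside 11.9%. Amn, which partners cubilin at the apical membrane, had 4.28, 2.54 and 3.85 RPKM in KO DSS and 1.30, 1.28 and 1.499 RPKM in WT DSS. Slc17a4, an organic anion transporter, had 46.3, 46.7 and 53.4 RPKM in KO DSS and 28.2, 29.7 and 27.2 RPKM in WT DSS. Each of these 3 genes had no overlap between the groups. The median of the absorptive list was 0.27 without KO DSS 3 and 0.32 with the trend of level with gene length taken out.

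Of the enzymes that oxidise, hydrolyse and conjugate foreign compounds, 4 of 31 tested genes of the oxidation list and 3 of 34 of the conjugation list were called higher, and 0 of either list were called lower. Cyp2c66, a cytochrome P450, had 3.10, 9.64 and 6.98 RPKM in KO DSS and 1.20, 0.725 and 1.37 RPKM in WT DSS (1.76, SE 0.31, adjusted p = 0.0463). Its neighbour Cyp2c65 had 159, 230.4 and 263 RPKM in KO DSS and 87.0, 70.8 and 112 RPKM in WT DSS (1.26). The carboxylesterases Ces1f and Ces1g, which cleave esters, had log2 fold changes of 0.97 and 0.99. Ces2g, another carboxylesterase that the list does not hold, went the other way, with 10.1, 7.09 and 7.13 RPKM in KO DSS and 14.7, 16.5 and 14.4 RPKM in WT DSS (−0.85). Called conjugating enzymes were the sulfotransferase Sult1d1, with 440.0, 458 and 378 RPKM in KO DSS and 227, 192 and 253 RPKM in WT DSS, and the glucuronosyltransferases Ugt2b5 and Ugt2b36. The groups did not overlap in any of these 8 genes. Called rises were 0.446% of all genes, and 11.1% and 11.9% of all genes had all KO libraries above and below all WT libraries. The oxidation list had a median of 0.29 with 10 genes below 0. All KO libraries lay above all WT libraries in 11 of its genes and below in 3 (Adh1, Cyp2d12 and Cyp2f2). The conjugation list had a median of 0.26 with 10 below 0, with 11 genes above in all KO libraries and 1 (Gstm1) below. Cyp2c65 and Cyp2c66, Ces1f and Ces1g, and Ugt2b5 and Ugt2b36 are close copies of each other, and how reads that fit both copies were counted is not given in the sources used here. When the length trend was removed the medians were 0.22 and 0.14.

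Gut hormones rose in part. Sct, which encodes secretin, had 39.4, 43.7 and 24.1 RPKM in KO DSS and 9.91, 8.81 and 10.7 RPKM in WT DSS (1.73, SE 0.21, adjusted p = 0.0287). Nts, which encodes neurotensin, had 42.0, 21.9 and 34.2 RPKM in KO DSS and 9.17, 7.96 and 14.8 RPKM in WT DSS (1.53, SE 0.26, adjusted p = 0.0449). They were 2 of 20 tested enteroendocrine markers to pass, beside 0.764% of all genes. In all, 6 markers were higher in all KO libraries (also Gcg, Sst, Tac1 and Tph1), beside 11.1% of all genes, and 0 were lower, beside 11.9%. The list's median was 0.21, and 0.07 without KO DSS 1. In these bulk libraries, for each cell type named, more cells of a type and more RNA per cell cannot be told apart. Slc6a4, the serotonin transporter, had 6.15, 7.29 and 6.76 RPKM in KO DSS and 13.4, 14.3 and 15.1 RPKM in WT DSS, and Htr4, a serotonin receptor, had 3.83, 3.48 and 3.18 RPKM in KO DSS and 8.30, 10.1 and 6.42 RPKM in WT DSS. Both of these fell (−0.98, adjusted p = 0.0309, and −1.03, adjusted p = 0.0362).

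St3gal5 and Mal had large rises, and St3gal5 was under 1 RPKM in every WT DSS library. St3gal5, which makes the ganglioside GM3, had 4.38, 16.5 and 5.41 RPKM in KO DSS and 0.335, 0.530 and 0.177 RPKM in WT DSS (2.66). It passed the filter through KO DSS alone and was called in 0 of the 6 fits that leave out a library. Mal, a protein of apical sorting, had 82.4, 219 and 57.2 RPKM in KO DSS and 14.7, 9.33 and 18.9 RPKM in WT DSS (2.79, SE 0.44, adjusted p = 0.034). KO DSS 2 was the highest library for both genes. Mal was the only called gene of 25 tested in the apical sorting list, whose median was 0.05, beside 0.764% of all genes called.

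**Figure D2:**
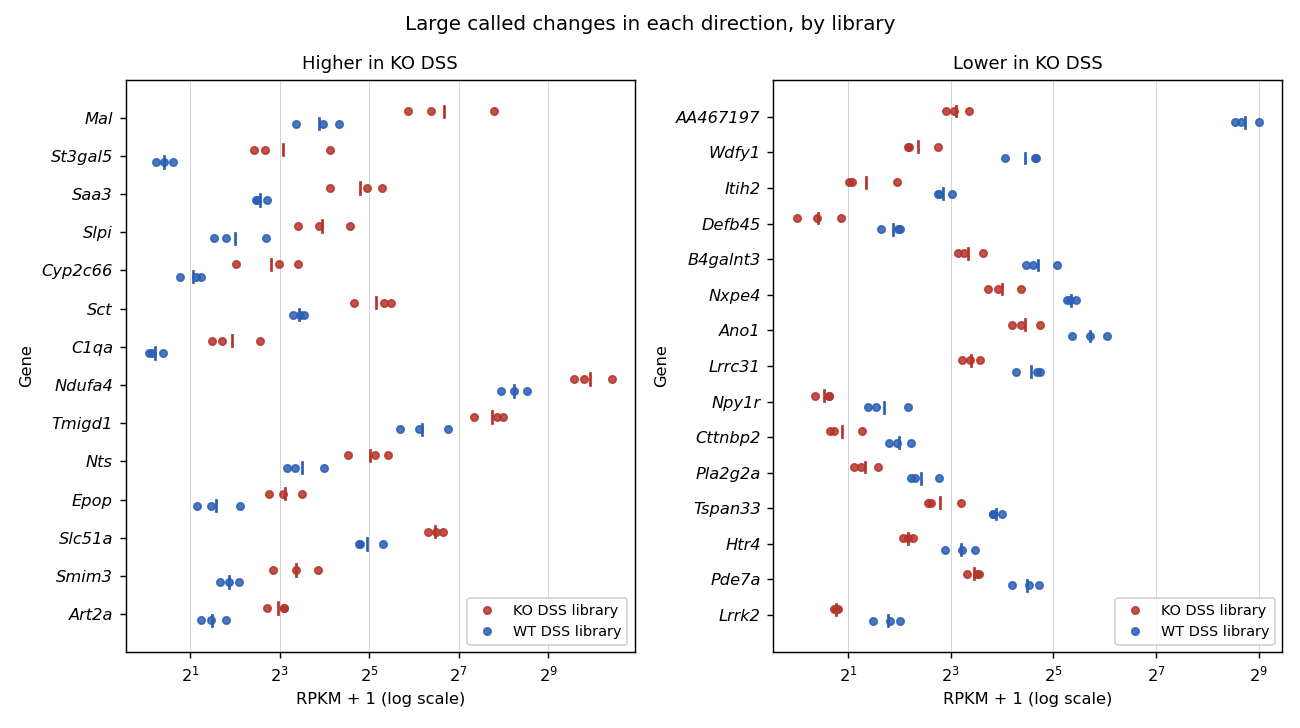
RPKM + 1 on a log axis for 14 large called rises (left) and 15 large called falls (right), gene models with no descriptive name left out, with each point a library, KO DSS in red above WT DSS in blue, and short bars at the group mean on the log scale. In each of the 29 genes the 3 KO DSS points lie wholly on one side of the 3 WT DSS points, which follows from choosing called genes with large changes.

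Acute phase and defence genes moved in both directions. Saa3, a serum amyloid A gene, had 16.5, 38.0 and 29.9 RPKM in KO DSS and 4.64, 4.56 and 5.62 RPKM in WT DSS (2.22, SE 0.26, adjusted p = 0.0287). Slpi, an inhibitor of leukocyte proteases, had 9.65, 13.7 and 22.8 RPKM in KO DSS and 5.49, 2.49 and 1.92 RPKM in WT DSS (1.94, adjusted p = 0.0463). Both were higher in each KO library, whereas 2 other members of the same list fell. Itih2, a hyaluronan-binding inhibitor chain, had 2.86, 1.10 and 1.03 RPKM in KO DSS and 5.75, 7.15 and 5.81 RPKM in WT DSS (−1.5, adjusted p = 0.036). Pla2g2a, a secreted antibacterial phospholipase, had 1.99, 1.18 and 1.40 RPKM in KO DSS and 3.66, 3.94 and 5.79 RPKM in WT DSS (−1.11, adjusted p = 0.039). Defb45, a beta-defensin at low level that passed the filter through WT DSS alone, had 0.814, 0.323 and 0 RPKM in KO DSS and 2.93, 2.13 and 3.04 RPKM in WT DSS. Of 28 tested members of the list 2 were called higher and 2 lower, beside 0.446% and 0.318% of all genes. The log2 fold change was above 0 in 19 and below 0 in 9. All KO libraries lay above all WT libraries in 8 and below in 3, beside 11.1% and 11.9% of all genes. The list's median was 0.43, and 0.09 without KO DSS 3.

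Genes of antigen presentation and of immune cells were higher, few of them past the test. H2-Q2, a class I molecule of the MHC, had 82.5, 79.8 and 81.2 RPKM in KO DSS and 42.3, 37.8 and 51.1 RPKM in WT DSS (0.89, adjusted p = 0.034). H2-T3, another, had 34.6, 40.5 and 40.4 RPKM in KO DSS and 17.0, 16.1 and 23.9 RPKM in WT DSS (0.998, adjusted p = 0.037). They were 2 called of 20 tested in the class I list (median 0.40), beside 0.764% of all genes. In 10 of its genes all KO libraries lay above all WT libraries, beside 11.1% of all genes, and in 0 all lay below, beside 11.9%. H2-Q2, H2-T3 and other class I genes are near-identical in places, so their counts may be shared. C1qa, a complement chain made by macrophages, had 1.82, 4.92 and 2.30 RPKM in KO DSS and 0.117, 0.328 and 0.0575 RPKM in WT DSS (1.71), and Fgl2, a secreted immune regulator, had 28.2, 36.7 and 35.2 RPKM in KO DSS and 17.3, 16.1 and 19.0 RPKM in WT DSS. C1qa passed the filter through KO DSS alone and was called in 0 of the 6 fits that leave out a library. It was the 1 called of 8 tested macrophage and dendritic cell markers, beside 0.764% of all genes. The 12 pan-leukocyte genes tested were all above 0 with a median of 0.41 and 0 called. Cd48 among them passed the filter through KO DSS alone, so that it was tested because of the group where it was high. For T and natural killer cell genes, 13 of 15 were above 0 with 0 called. The 23 macrophage and dendritic cell genes together had 339 to 429 RPKM in KO DSS and 275 to 338 RPKM in WT DSS, and the T and natural killer genes 48.5 to 76.0 RPKM in KO DSS and 29.8 to 48.5 RPKM in WT DSS, with 0 genes of either list at 0 in all 6 libraries. The part that such cells have in these values was not tested. The interferon list had 43 tested, 38 above 0, a median of 0.47 and 0 called. All KO libraries lay above all WT libraries in 16 of its genes, beside 11.1% of all genes, and below in 1 (Dhx58), beside 11.9%. Ifi47, an interferon-induced GTPase, had 13.8, 19.1 and 42.8 RPKM in KO DSS and 7.45, 5.49 and 8.65 RPKM in WT DSS (adjusted p = 0.0884). The macrophage median was 0.49 and the interferon median 0.33 without KO DSS 3.

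Genes that set position along the gut split into groups. Hoxb8, a Hox factor, had 7.47, 6.88 and 8.33 RPKM in KO DSS and 3.28, 3.86 and 3.97 RPKM in WT DSS (0.86, adjusted p = 0.034). Hoxa13, the Hox factor of the hindgut end, had 13.6, 13.5 and 13.8 RPKM in KO DSS and 26.2, 25.6 and 23.01 RPKM in WT DSS (−0.82, adjusted p = 0.034). Hoxa9 had 7.41, 6.36 and 6.48 RPKM in KO DSS and 14.0, 12.8 and 10.6 RPKM in WT DSS (−0.79). Hoxb8 rose while Hoxa9 and Hoxa13 fell. Hottip, a noncoding RNA transcribed beside Hoxa13, fell with them, with 11.3, 10.7 and 8.79 RPKM in KO DSS and 18.9, 19.1 and 19.8 RPKM in WT DSS. Of 25 tested genes of the list, which holds Cdx1 and Cdx2 too, the 8 with all KO libraries above all WT libraries were Hoxb3 to Hoxb9 and Cdx2. The 10 with all below were Hoxa3, Hoxa6, Hoxa7, Hoxa9, Hoxa10, Hoxa11, Hoxa13, Hoxb13, Hoxd11 and Cdx1. Over all genes the shares were 11.1% above and 11.9% below. The list's median was −0.48, from −0.45 without KO DSS 1 to −0.39 without WT DSS 3, and −0.42 when the length trend was removed. The transcription factors Etv4 and Foxq1 fell, Etv4 with 2.34, 1.77 and 1.76 RPKM in KO DSS and 4.61, 4.08 and 4.45 RPKM in WT DSS and Foxq1 with 2.59, 2.08 and 2.19 RPKM in KO DSS and 5.07, 6.06 and 5.10 RPKM in WT DSS, while the zinc finger factor Osr2 rose (0.83).

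Of the glycan enzymes and mucins, 18 of 46 tested genes had a log2 fold change above 0. B4galnt3, which adds N-acetylgalactosamine to glycans, had 11.3, 8.57 and 7.80 RPKM in KO DSS and 23.4, 32.4 and 21.0 RPKM in WT DSS (−1.37, SE 0.19, adjusted p = 0.034). Nxpe4, a protein of the neurexophilin family, had 19.7, 14.2 and 12.2 RPKM in KO DSS and 42.2, 38.9 and 37.6 RPKM in WT DSS (−1.33, SE 0.17, adjusted p = 0.0309). Both groups of 3 libraries were apart in each gene. Of 46 tested members 1 (St3gal5, tested through KO DSS alone) was called higher and 2 lower, beside 0.446% and 0.318% of all genes. All KO libraries lay above all WT libraries in 10, beside 11.1% of all genes, and below in 18, beside 11.9%. Among the 18 were the sialyltransferases St6gal1, St6galnac2, St6galnac4 and St6galnac6 and the fucosyltransferases Fut4 and Fut8. The list's median was −0.09, and its summed level was 3244 to 3446 RPKM in KO DSS and 3754 to 3909 RPKM in WT DSS.

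Ano1, a calcium-activated chloride channel, had 25.9, 19.6 and 17.4 RPKM in KO DSS and 51.4, 64.8 and 40.4 RPKM in WT DSS (−1.27, SE 0.20, adjusted p = 0.034). It was the 1 called of 36 tested ion and water transport genes, beside 0.764% of all genes. All KO libraries lay below all WT libraries in 10, among them Cftr, Kcnq1 and Scnn1a, beside 11.9% of all genes. They lay above in 1 (Guca2a), beside 11.1%. The amino acid carriers Slc1a1 (−0.89) and Slc36a1 (−0.97) and the chloride channel protein Clic6 (−0.92) fell too. Pde7a, a phosphodiesterase that degrades cyclic AMP, had 10.4, 10.7 and 9.01 RPKM in KO DSS and 21.9, 25.5 and 17.3 RPKM in WT DSS, and Prkacb, a catalytic subunit of the kinase that cyclic AMP activates, fell by 0.73 on the log2 scale. Npy1r, a neuropeptide Y receptor, had 0.538, 0.284 and 0.552 RPKM in KO DSS and 1.93, 3.53 and 1.61 RPKM in WT DSS. Lrrk2, a kinase of vesicle traffic, had 0.749, 0.661 and 0.699 RPKM in KO DSS and 2.54, 3.06 and 1.80 RPKM in WT DSS. The groups did not overlap in Pde7a, and Npy1r and Lrrk2 were tested through WT DSS alone.

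Wdfy1, an endosomal FYVE-domain protein, was after AA467197 the called gene with the largest fall. It had 5.76, 3.56 and 3.51 RPKM in KO DSS and 15.7, 24.4 and 23.8 RPKM in WT DSS (−2.08, SE 0.21, adjusted p = 0.0221). Among the 6 fits that leave out a library, its call was lost only without WT DSS 2 (adjusted p = 0.166). It was called in 10 of 11 other settings. In untreated mice it had 13.3, 3.35 and 14.3 RPKM in KO (KO untreated 2, 4 and 5) and 15.8, 25.1 and 15.3 RPKM in WT. The means were 10.3 ± 6.06 RPKM in KO and 18.7 ± 5.53 RPKM in WT (SD, n = 3 each), with KO untreated 4 far below the other KO libraries. Wdfy1 was the 1 called of 44 tested NF-kappaB and Toll-like receptor genes, a list with a median of −0.02, beside 0.764% of all genes called. Lrrc31, a leucine-rich repeat protein, had 10.9, 9.43 and 8.36 RPKM in KO DSS and 25.8, 24.8 and 18.3 RPKM in WT DSS. Tspan33, a tetraspanin, had 8.17, 5.13 and 4.87 RPKM in KO DSS and 13.2, 15.1 and 13.2 RPKM in WT DSS. Cttnbp2, a cortactin-binding protein, had 1.41, 0.565 and 0.656 RPKM in KO DSS and 2.89, 3.67 and 2.47 RPKM in WT DSS. The 3 KO libraries were below the 3 WT libraries in all 4 genes.

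Further rises covered several roles. Epop, a chromatin protein that binds the polycomb complex, had 7.39, 10.4 and 5.78 RPKM in KO DSS and 1.76, 1.24 and 3.36 RPKM in WT DSS. Art2a, an ADP-ribosyltransferase, had 7.54, 5.63 and 7.54 RPKM in KO DSS and 1.76, 1.36 and 2.47 RPKM in WT DSS. Smim3, a small membrane protein, had 9.35, 13.6 and 6.22 RPKM in KO DSS and 2.64, 2.20 and 3.25 RPKM in WT DSS. In all 3 the groups were apart. Cd44, a hyaluronan receptor found on crypt base cells, was the 1 called of 18 crypt stem and Wnt genes (0.75), beside 0.764% of all genes. In contrast, 8 others of that list, among them Axin2, Rnf43 and Sox9, had all KO libraries below all WT libraries, beside 11.9% of all genes. The list's median was −0.22. Pclaf, which binds the DNA clamp PCNA, and Pbk, a kinase of mitosis, rose (1.24 and 0.89). Neither is in the cell cycle list, in which 47 of 54 tested genes were above 0 (median 0.30) and 0 were called. All KO libraries lay above all WT libraries in 16 of them, beside 11.1% of all genes, and below in 0, beside 11.9%.

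The respiratory chain and the ribosomes of mitochondria gave positive medians with no called gene apart from Ndufa4. Complex I had 34 of 35 tested genes above 0 and a median of 0.34, complexes II and III 13 of 14 at 0.36, and complex IV without Ndufa4 12 of 12 at 0.45. These medians were 0.09, 0.15 and 0.10 with the trend of level with gene length taken out, and 0.20, 0.22 and 0.27 without KO DSS 1. Mitochondrial ribosomal proteins had 54 of 58 above 0 at 0.26 (0.08 with the trend taken out). Acaa1b, a peroxisomal thiolase, was the 1 called of 26 fatty acid oxidation and ketogenesis genes, whose median was 0.13, beside 0.764% of all genes called.

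Several list medians moved by over 1.5 times with single libraries. The oxidation list ran from 0.15 without WT DSS 2 to 0.50 without WT DSS 3, the conjugation list from 0.17 without WT DSS 2 to 0.41 without KO DSS 2, and the class I list fell to 0.26 without WT DSS 2. The cell cycle median was 0.46 without KO DSS 1, the pan-leukocyte median 0.20 and the T and natural killer median 0.21 without KO DSS 3, and the crypt stem median −0.13 without WT DSS 2. The ion and water transport median, −0.15 in all, was −0.27 without KO DSS 2 and −0.06 without KO DSS 1, and the glycan list was −0.18 without KO DSS 2. Fatty acid oxidation ran from 0.09 without WT DSS 2 to 0.22 without WT DSS 3, the bile acid list reached 0.18 without KO DSS 1, and the mitochondrial ribosome list had 0.14 without KO DSS 1.

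**Figure D3:**
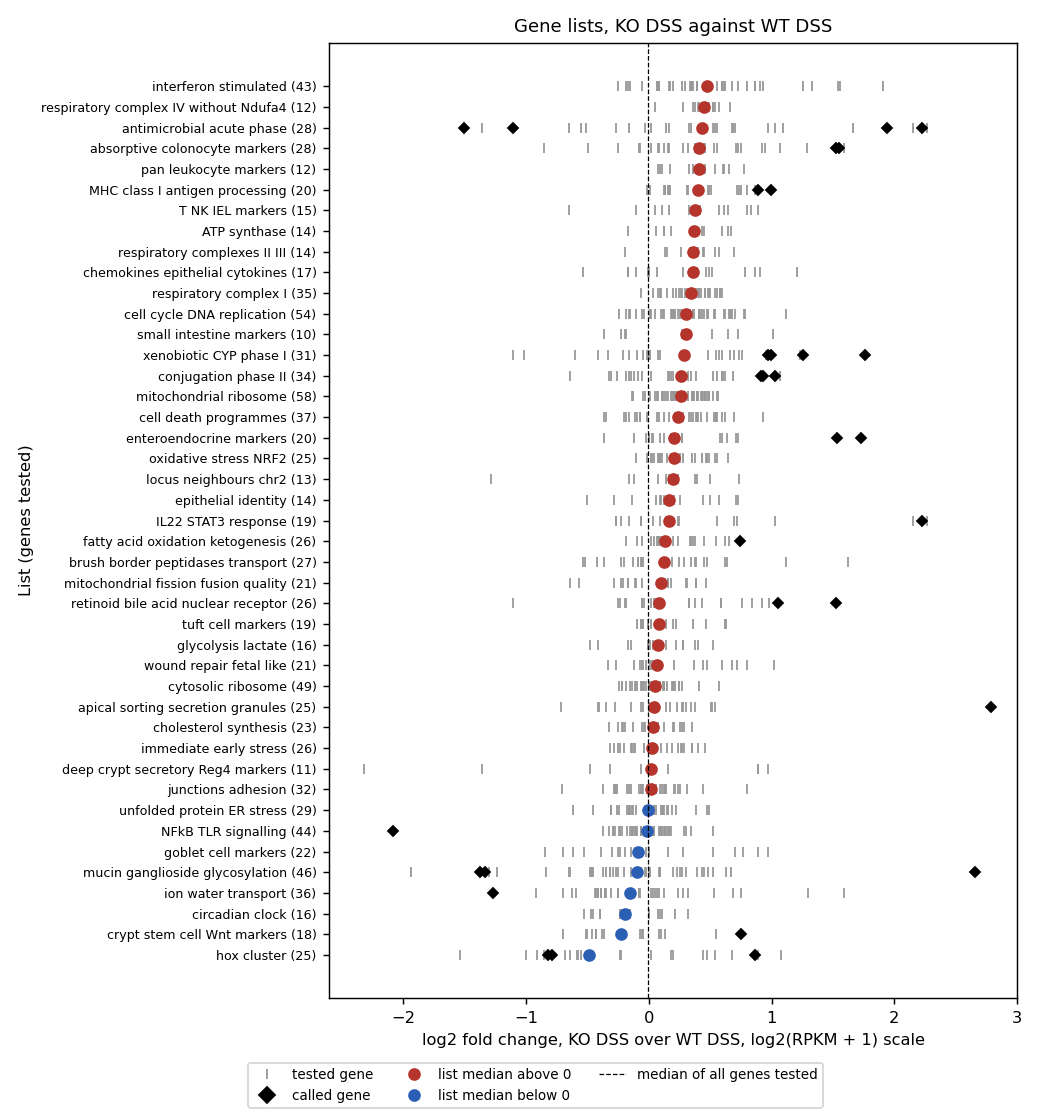
Log2 fold change of KO DSS over WT DSS for every tested member (grey ticks) of each list with 10 or more tested genes, called members as black diamonds and the list median as a circle, red above 0 and blue below. Medians run from 0.47 for the interferon list to −0.48 for the Hox list, while the dashed line marks the median of all genes at −0.01, and St3gal5 and Mal are the diamonds furthest to the right.

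Gene length moved with the result. With the tested genes cut into 10 bins by length, the bin of the shortest (median 868 bases) had a median log2 fold change of 0.26 and the bin of the longest (median 7908 bases) one of −0.25. The called rises had a median length of 1986 bases and the called falls 3739, against 2971 for all genes tested. KO DSS 1 lay 0.43 above the mean of the 6 libraries on the log2 scale in the shortest bin and stood at −0.35 in the longest, and WT DSS 2 went the other way, with −0.28 in the shortest and 0.33 in the longest. After the length trend was removed from each library 286 genes were called, 142 higher and 144 lower, and 81 of the 84 were among them.

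**Figure D4:**
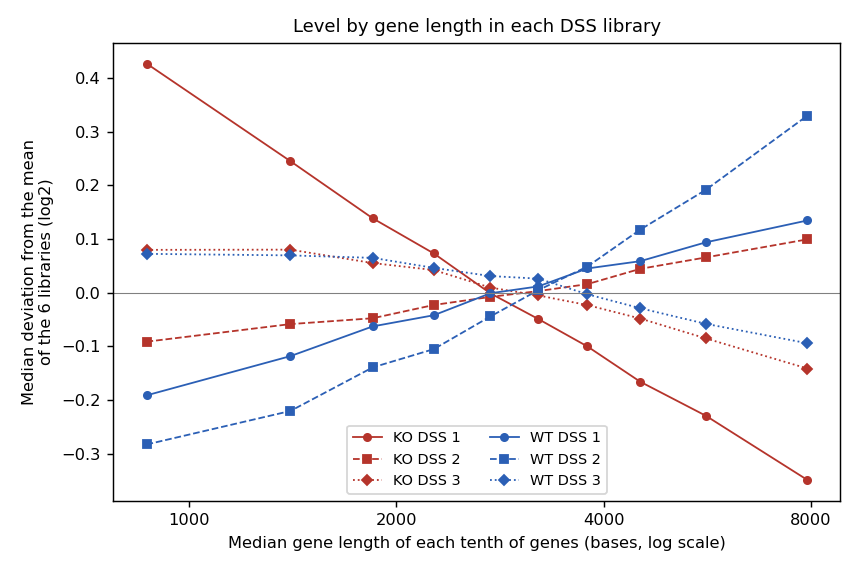
Median deviation of each DSS library from the mean of the 6 libraries (log2) for 10 bins of genes by length, on a log axis in bases. KO DSS 1 (solid red) falls from short to long genes, WT DSS 2 (dashed blue) rises, and the other 4 libraries lie between them.

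In untreated mice, 66 of the 84 called genes (78.6%) had a log2 fold change of the opposite sign and 18 of the same sign, and over all 10990 genes 50.7% had the opposite sign. The untreated value lay within 0.1 of 0 in 22 of the 84. Tested over 12 libraries, the KO against WT difference under DSS differed from that in untreated mice in 158 genes (1.4% of 11306), 84 higher and 74 lower under DSS. Of these, 52 were among the 84, 30 rises and 22 falls, and since this test contains the DSS difference by which the 84 were chosen, nothing is read from that overlap. The 12 libraries belong to 2 tables that were normalised separately, so that DSS and table cannot be told apart. The count was 433 without KO DSS 1, 300 without WT DSS 3, 43 without WT untreated 1, 39 without WT untreated 2, 4 without KO untreated 4, 2 without each of KO DSS 3, WT DSS 2 and WT untreated 3, and 1 without each of WT DSS 1, KO untreated 2 and KO untreated 5, and it stayed within 1.5 times only without KO DSS 2 (144).

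The called genes were chosen for a gap between KO DSS and WT DSS, so either group can be expected at the extreme of the 4 group means. Of the 4 group means, KO DSS was the highest in 33 and WT DSS the lowest in 43 of the 49 rises. For the 35 falls KO DSS was the lowest in 32 and WT DSS the highest in 27. St3gal5 averaged 8.83 ± 1.55 RPKM in KO untreated and 11.2 ± 5.54 RPKM in WT untreated (SD, n = 3 each). Under DSS, St3gal5 averaged 8.77 ± 6.72 RPKM in KO and 0.347 ± 0.176 RPKM in WT. Saa3 averaged 8.56 ± 0.678 RPKM in KO untreated and 6.99 ± 1.79 RPKM in WT untreated. Slc51a averaged 82.4 ± 21.5 RPKM in KO untreated and 96.5 ± 24.8 RPKM in WT untreated, beside 88.6 ± 10.2 RPKM in KO DSS and 30.4 ± 6.87 RPKM in WT DSS. Sct averaged 31.2 ± 7.68 RPKM in KO untreated and 33.0 ± 9.60 RPKM in WT untreated, beside 35.7 ± 10.2 RPKM in KO DSS and 9.80 ± 0.933 RPKM in WT DSS. These levels are across tables and carry no test.

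**Figure D5:**
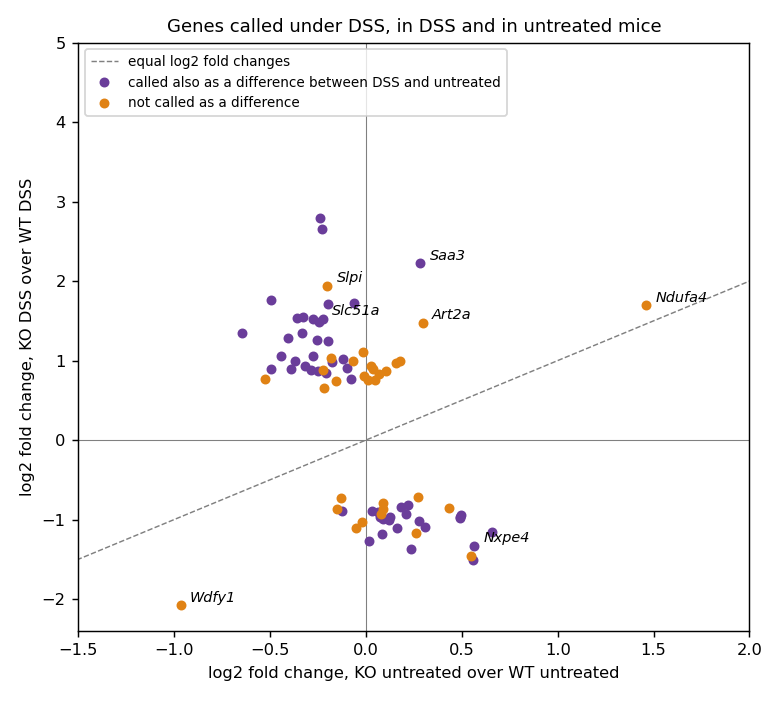
For called genes other than AA467197, the log2 fold change in untreated mice (horizontal) against that under DSS (vertical), coloured by whether the test of the difference between them was called. Most points lie near 0 horizontally or in the quadrants of opposite sign, while Ndufa4 lies close to the dashed line of equal values and Wdfy1 has the same sign on both axes.

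Promoters of the called genes were read for 3 letter patterns. RefSeq windows (GRCm38.p6) from 250 bases before to 50 after the start were matched by symbol for 61 of the 84 called genes that have a single window, 37 rises and 24 falls, and for 7045 of the genes tested. The patterns were TTTATNG, bound by CDX factors, AGGTCA, a half-site of nuclear receptors, and TTCNNNGAA, bound by STAT dimers, each on both strands. TTTATNG was found in 8 of 37 rises (21.6%), 1 of 24 falls (4.17%) and 504 of 7045 windows in all (7.15%). Its reverse CNATAAA takes in the letters TATAAA of the TATA box, and without such matches it was found in 4 of 37 rises (10.8%), 1 of 24 falls and 334 windows (4.74%). AGGTCA was found in 7 of 37 rises (18.9%), 3 of 24 falls (12.5%) and 841 windows (11.9%), and TTCNNNGAA in 2 of 37 rises (5.41%), 0 of 24 falls and 497 windows (7.05%). A match describes letters and is no evidence of binding. The windows around matches in Hoxb8, Slc10a2, Ces1g, Slc51a and the close copies Ugt2b5 and Ugt2b36 are shown because these genes rose. Matched letters are in capitals, and distances are from the RefSeq start. The GENCODE gene extends to 5105351 for Slc10a2 and to 93337308 for Ces1g. The Slc10a2 matches at 62 and 52 bases and the Ces1g match at 26 bases therefore lie inside the GENCODE gene. TTTATAG, in Hoxb8 at 199 and 110 bases and in Ces1g at 26 bases, is a match of the TATA box kind.
Hoxb8, CDX site, 199 bases before the start, chr11:96281696-96281722, plus strand: aagctgcagtTTTATAGctgtagagga
Hoxb8, CDX site, 120 bases before the start, chr11:96281775-96281801, plus strand: agactccggcTTTATTGcgttttatag
Hoxb8, CDX site, 110 bases before the start, chr11:96281785-96281811, plus strand: tttattgcgtTTTATAGtttgttaaag
Slc10a2, CDX site, 175 bases before the start, chr8:5105446-5105472, minus strand: attatcatgtCAATAAAtgattaatta
Slc10a2, CDX site, 62 bases before the start, chr8:5105333-5105359, minus strand: catactagcaTTTATTGttttttattg
Slc10a2, CDX site, 52 bases before the start, chr8:5105323-5105349, minus strand: tttattgtttTTTATTGcttctctaac
Ces1g, CDX site, 208 bases before the start, chr8:93337401-93337427, minus strand: ccttggttagTTTATGGacctctgtta
Ces1g, CDX site, 26 bases before the start, chr8:93337219-93337245, minus strand: caggcatgagTTTATAGctgtggggca
Slc51a, nuclear receptor half-site, 58 bases before the start, chr16:32487922-32487947, minus strand: cttctcttctTGACCTatcagggaat
Ugt2b5, nuclear receptor half-site, 22 bases before the start, chr5:87140347-87140372, minus strand: cttggataaaAGGTCAagcagtgaca
Ugt2b36, nuclear receptor half-site, 25 bases before the start, chr5:87092565-87092590, minus strand: cttagataaaAGGTCAagcagtgaca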

How the data were processed

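Mouse colonocyte RNA was profiled as stranded libraries of polyadenylated RNA (miRNeasy, KAPA mRNA HyperPrep, per the labels' protocols). Per the submitters' processing notes, the authors used TopHat2 2.1.1 with edgeR 3.30.3, and the builds named are GRCm38 and mm10. Which counter and gene annotation were used is not given in the sources used here. The deposited tables hold RPKM per library, per the file headers. The authors' deposited log2 fold change and log2 abundance, F score, p-value and false discovery rate stand beside them and were not used here. Of 23794 gene lines, 4 whose spreadsheet-made date names repeat were left out.

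RPKM steps gave whole reads for 100% of 23790 genes (tolerance 0.02 reads). The design assumed RPKM, and the main fit used no count model. KO DSS was compared with WT DSS by limma 3.58.1 (R 4.3.3), 2-sided, on log2(RPKM + 1) with the trend option of its variance estimate, over genes with an RPKM of 1 or more in 3 of 6 libraries. A call is a Benjamini-Hochberg adjusted p under 0.05 over all genes tested. A fold change on this scale understates the change of low genes. The interaction used the 12 libraries and 11306 genes. Groups came from the labels. The 50 gene lists, the members and the promoter patterns were chosen with earlier results of these data known. Per-library values are given for AA467197, Ndufa4 and up to 15 called rises and falls, with other called genes and up to 3 members of each list named; 1 called gene is not reported here. Lists are described by counts and medians, with no set test. Positions are GENCODE vM21, 1-based. Sequences are RefSeq. Mir147 was not analysed here. The fits were tested on simulated data. Alternatives were other pseudocounts, filters, scalings, a length correction, a replicate block, library weights, voom on the recovered reads, a shared spread and leaving out each library.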

Additional observations from a re-analysis of the deposited data

Results flagged for a closer look

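Of 29 genes with large changes under DSS, 14 rises and 15 falls, 20 had a KO against WT log2 fold change that differed between DSS and untreated mice in the limma interaction over 12 libraries, with adjusted p-values of 0.0331 to 0.0493. The 29 were chosen for their DSS difference, which this test contains, so the share that passed is not read as a result. Each value is the log2 fold change of KO over WT under DSS minus that in untreated mice. Among the rises it was above 0 for Mal (3.03), St3gal5 (2.89), Saa3 (1.94), Cyp2c66 (2.25), Sct (1.79), C1qa (1.91), Tmigd1 (1.88), Nts (1.89), Epop (1.80), Slc51a (1.75), Smim3 (1.73). Among the falls it was below 0 for Itih2 (−2.06), B4galnt3 (−1.60), Nxpe4 (−1.90), Ano1 (−1.29), Lrrc31 (−1.26), Cttnbp2 (−1.28), Tspan33 (−1.41), Pde7a (−1.30), Lrrk2 (−1.13). Slc6a4, the serotonin transporter, lies outside these 29 and was named after its value was seen: its difference was −1.47 (limma adjusted p = 0.00634), with 6.73 ± 0.568 RPKM in KO DSS and 14.3 ± 0.869 RPKM in WT DSS, beside 11.2 ± 0.573 RPKM in KO untreated and 7.75 ± 1.26 RPKM in WT untreated (SD, n = 3 each). The DSS and untreated libraries stand in separately normalised tables, so DSS and table cannot be told apart.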

How the results depend on the processing

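The count of 84 called genes was 86 with a pseudocount of 0.1, 71 with a filter at an RPKM of 5, 92 after quantile normalization and 82 with voom on the recovered reads, which share 80, 66, 77 and 71 genes with the 84. It was 1 with no filter on low values, where 17576 genes were tested, 286 with the length trend taken out, 398 with a replicate block, 308 with the replicate block and the length trend taken out together (chosen after seeing the data), 623 with a shared spread over 12 libraries, 9021 with library weights, whose estimation stopped before it converged, and 3899 with weights estimated gene by gene (chosen after seeing the data). The cause of these moves was not tested. Leaving out single libraries gave 1 to 364. The interaction count of 158 was 168 with a pseudocount of 0.1, 4 with no filter and 1 to 433 without single libraries. No log2 fold change of the 29 genes changed sign under these settings: 337 recomputed values kept their call and 133 did not, and settings in which a gene was not tested gave no value. Of list medians, 725 stayed within the spread between libraries and 91 moved beyond it.

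Replicate numbers name the libraries in both groups, and whether same-numbered libraries are paired is not settled here. The correlation of deviations between same-numbered libraries was −0.11, 0.36 and 0.13 for numbers 1, 2 and 3. KO DSS 2 and KO DSS 3 correlated best with the WT DSS library of their number, and KO DSS 1 with WT DSS 3 (0.30). Deviations within a group of 3 depend on each other, so these values cannot decide on pairing. The block raised the calls to 398 (207 higher, 191 lower), with all 84 among them. With 3 libraries a group and 12622416 reads in the shallowest, counting error limits the low genes and was not separated from the spread between libraries.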

Other observations

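Called genes were spread over the chromosomes, with chromosome 6 holding 10 of its 538 tested genes (1.86%), beside 0.764% of all genes. Of the 10, 2 were higher and 8 lower in KO DSS, beside 0.446% and 0.318% of all genes. This was read after the values were seen. The falls on chromosome 6 include Hoxa9, Hoxa13 and Hottip, which lie between 52223100 and 52267603, and its rises are Ndufa4 and St3gal5. On chromosome 2, which carries AA467197, 7 of 849 tested genes were called (0.824%), near the 0.764% of all genes. Of 13 tested genes near AA467197, 0 were called, 4 had all KO DSS libraries above all WT DSS libraries (B2m, Slc30a4, Spata5l1 and Sqor), beside 11.1% of all genes tested, and 1 had all below (Gatm), beside 11.9%. Gatm, which encodes an enzyme of creatine synthesis, had 7.88, 2.68 and 2.52 RPKM in KO DSS and 10.2, 13.5 and 9.26 RPKM in WT DSS (−1.28, limma adjusted p = 0.11). Mptx1, a pentraxin gene of crypt secretory cells, had 2943, 308 and 394 RPKM in KO DSS and 2119, 3261 and 6462 RPKM in WT DSS, with the groups overlapping and no call.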
